A study of Rattus norvegicus with 7 samples.

Results

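The let-7 and miR-98 family was followed on arrays of rat liver miRNA. Its members were 10 listed names: the guide strands rno-let-7a, rno-let-7b, rno-let-7c, rno-let-7d, rno-let-7e, rno-let-7f, rno-let-7i and rno-miR-98, and the star strands rno-let-7b* and rno-let-7d*. The species prefix is left off below. They were 10 of the 677 miRNAs on the array, found by name among the non-control spots. The family was picked with earlier results of these arrays known, but not by a threshold on them. Adult male Sprague-Dawley rats ate a control diet (Control) or a diet containing 50 mg/kg perfluorooctanesulfonate (PFOS), a persistent fluorinated surfactant, for 28 days. Total RNA of frozen liver was labelled with Cy3 and hybridised to 1-colour Agilent rat miRNA arrays, with 1 rat on each array. There were 4 PFOS arrays and 3 Control arrays, 1 further control array having failed the submitters' quality control. Both groups were fed for the same time. The labels name no difference between them other than the diet, and no allele or second agent. Values are for whole liver, in which fewer cells of a type and less RNA per cell cannot be told apart.

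miRNAs are short RNAs that an Argonaute protein uses to find and repress messenger RNAs, mainly by pairing of the seed, bases 2 to 8 of the miRNA. One strand of the hairpin precursor, the guide, is kept, and the opposite strand, marked here with a star, is mostly degraded. The let-7 family is known for its rise during development and for its abundance in differentiated tissues, adult liver included. Its textbook targets include Lin28a, Hmga2, Igf2bp1 and Ras genes, and LIN28 proteins in turn block the maturation of let-7 precursors.

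The mature sequences are shown because near-identical members are read by separate probes, so that each probe may also bind its relatives. They are RefSeq's (GRCr8), in which 10 of 10 members had an entry, and capitals mark the seed.
let-7a: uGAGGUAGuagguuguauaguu
let-7b: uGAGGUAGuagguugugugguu
let-7c: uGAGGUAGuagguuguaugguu
let-7d: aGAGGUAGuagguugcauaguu
let-7e: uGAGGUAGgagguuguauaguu
let-7f: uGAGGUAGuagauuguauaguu
let-7i: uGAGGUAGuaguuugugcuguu
miR-98: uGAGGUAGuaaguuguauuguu
let-7b*: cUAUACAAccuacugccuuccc
let-7d*: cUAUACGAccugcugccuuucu
The 8 guides shared the seed GAGGUAG and were 22 bases long. Counted from 1 at the 5′ end, with the let-7a base written first, let-7c differed from let-7a by A19G, let-7e by U9G and let-7f by G12A. The difference was A17G and A19G for let-7b, U1A and U16C for let-7d, and G11A and A19U for miR-98. The most distant from let-7a was let-7i, with 4 differences (G12U, A17G, U18C and A19U). The star strands had other seeds, and let-7d* differed from let-7b* by A7G, A12G, C20U and C22U. In RefSeq, let-7g carries the same seed as the guides, but no probe bears its name, so it was not analysed here.

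The let-7d precursor shows how a guide and its star strand come from 1 hairpin of 98 bases (GRCr8, chr17:16322260-16322357, + strand), in which capitals mark the 5′ guide and the 3′ star strand.
let-7d hairpin: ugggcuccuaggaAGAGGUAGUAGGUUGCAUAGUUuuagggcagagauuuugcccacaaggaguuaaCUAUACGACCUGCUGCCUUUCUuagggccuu

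Before any scaling, the PFOS arrays were brighter than the Control arrays. The median signal of the miRNAs detected on all arrays was between 226 and 326 on the PFOS arrays and between 133 and 176 on the Control arrays, 1.74 times as high in the mean. The control spots taken as the labelling spike-in, because they follow that metric in the file headers, lay between 3875 and 6469 with PFOS and between 2110 and 2213 in Control, a 2.20-fold difference of means. The median unscaled signal of the let-7 guides differed by 1.78-fold in the same direction. The comparisons below are therefore of normalised signals, relative to the other miRNAs of the same array. Excepted are ratios within an array that are said to be taken before normalisation or before loess. Of the 677 miRNAs, 175 were detected widely enough to be tested, and all 10 members were among them. As a check of the tissue, the hepatocyte miRNAs miR-122, miR-122*, miR-192 and miR-194 were detected on all 7 arrays, with a summed normalised signal of 64394 to 67161 with PFOS and 65826 to 66841 in Control. The neuronal miR-124 and miR-9 and the muscle miR-1 and miR-133a were detected on no array. The remaining markers of those lists were detected on some: miR-128 on 3 PFOS arrays and no Control array (log2 difference 0.10, adjusted p = 0.817), and miR-206 on 3 PFOS and 2 Control arrays (-0.87, adjusted p = 0.512). Lists for leukocytes and Kupffer cells, erythroid cells, endothelium, and stellate cells and fibroblasts also had no member that passed the test. Since none of the 175 tested miRNAs passed it, this is no measure of cell composition.

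The comparison of PFOS with Control asks whether dietary PFOS was accompanied by a change in hepatic miRNAs. In this family no change passed the test. No member had an adjusted p under 0.05 (limma, Benjamini-Hochberg over the 175 miRNAs), and neither had any other miRNA (0% called, smallest adjusted p 0.127). At an unadjusted p under 0.05 there was 1 member, let-7b*, beside 34 of the 175 miRNAs (19.4%). The log2 difference, PFOS minus Control, was positive for 7 members and negative for 3, with a median of 0.06, beside a median of -0.02 over all 175, of which 81 (46.3%) were positive. That sign depends on the processing. Scaled on the labelling spike-in, all 10 members were negative (median -0.30, all tested -0.41). In the authors' deposited normalised table the log2 difference was negative for 8 of the 10 (median -0.13, all tested -0.02). Why the deposited table differs was not tested.

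**Figure D1:**
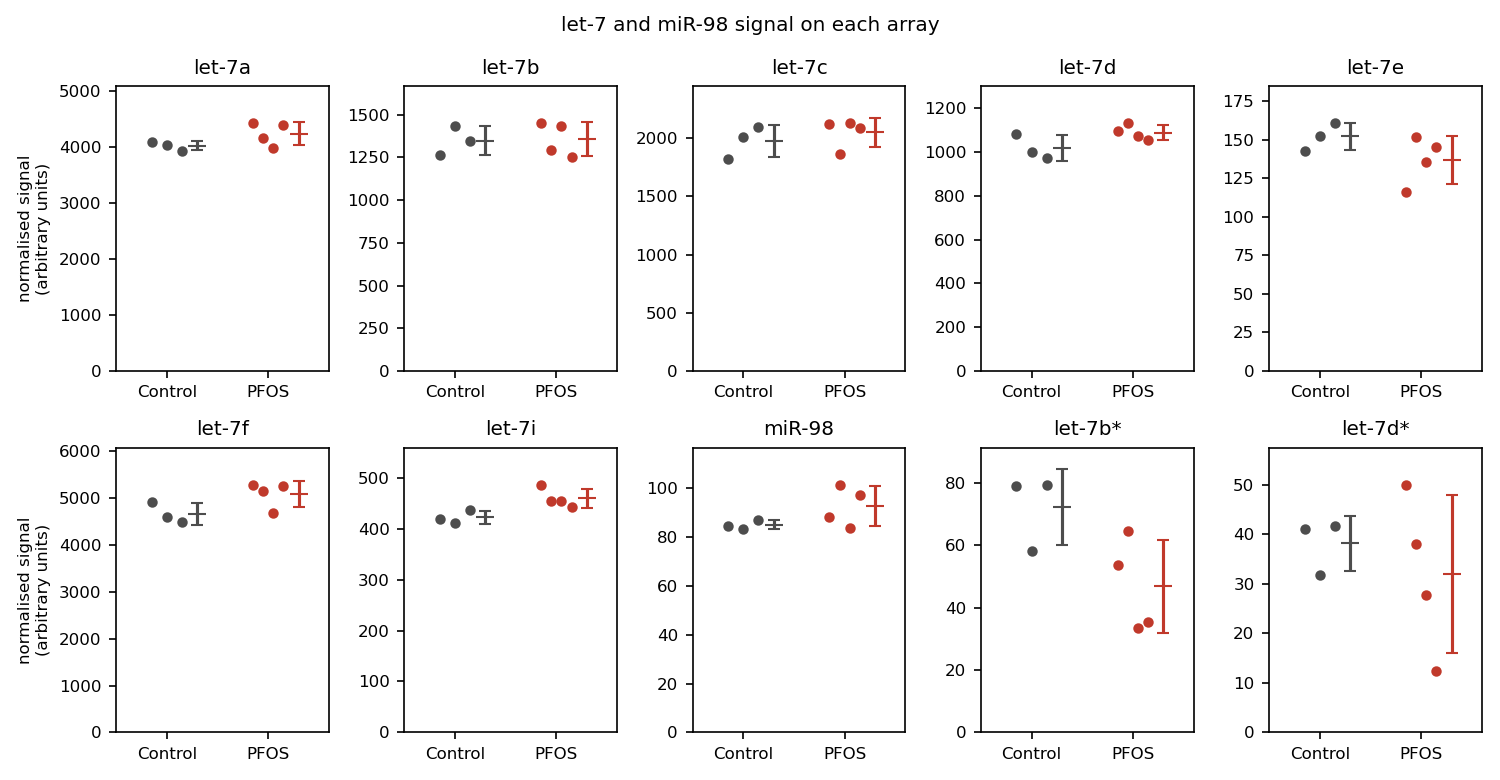
Normalised signal of each member (arbitrary units, linear axis from 0, a separate scale in each panel) on the 3 Control and the 4 PFOS arrays. Points are arrays and bars are the mean ± SD; the groups overlap in every panel except let-7i, where the 4 PFOS arrays lie between 443 and 486 and the 3 Control arrays between 411 and 437.

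Signal depends on a probe's binding as well as on the RNA, so levels of different members are not ranked here. For let-7f, one of the guides that target the same seed sites, the normalised signal was 5290, 5161, 4692 and 5251 on PFOS arrays 1 to 4, and 4928, 4596 and 4482 on Control arrays 1 to 3. Its log2 difference was 0.13 (SE 0.08, adjusted p = 0.459), and PFOS 3 lay inside the Control range. For let-7a, the signals were 4428, 4157, 3981 and 4388 with PFOS and 4092, 4038 and 3936 in Control. The groups overlapped, with a log2 difference of 0.07 (SE 0.07, adjusted p = 0.622, 95% interval -0.09 to 0.24).

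The let-7a, let-7f and let-7d genes neighbour each other on rat chromosome 17. The third of them, let-7d, read 1094, 1132, 1072 and 1057 with PFOS and 1082, 1002 and 970 in Control. Only Control 1 lay among the PFOS values, and the log2 difference was 0.10 (SE 0.07, adjusted p = 0.512).

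A gene for let-7c lies next to that for let-7b on chromosome 7. For let-7c, the PFOS arrays read 2118, 1867, 2129 and 2089 and the Control arrays 1825, 2009 and 2096. PFOS 2 stood below the other PFOS arrays and inside the Control range. The log2 difference was 0.05 (SE 0.09, 95% interval -0.15 to 0.26), and it was -0.01 without Control 1. For let-7b, the signals were 1451, 1293, 1436 and 1251 with PFOS and 1266, 1436 and 1345 in Control. These were interleaved, with a log2 difference of 0.01 (SE 0.09, adjusted p = 0.997, 95% interval -0.20 to 0.22), the smallest in the family.

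The let-7i gene had no member gene near it. It was the only member whose groups did not overlap: 486, 455, 455 and 443 on the PFOS arrays against 419, 411 and 437 on the Control arrays. The share of all 175 miRNAs with every PFOS array above every Control array was 10.3%, so 1 of 10 members is near the background. The log2 difference of let-7i was 0.12 (SE 0.07, adjusted p = 0.387, 95% interval -0.04 to 0.29).

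miR-98 carries another name but the let-7 seed. This guide, whose gene neighbours a let-7f gene on the X chromosome, read 88.3, 101, 83.6 and 97.0 with PFOS and 84.7, 83.3 and 87.0 in Control. PFOS 3 lay among the Control arrays, and the log2 difference was 0.12 (SE 0.09, adjusted p = 0.512).

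let-7e was the only guide with a negative value. It read 116, 151, 136 and 145 on the PFOS arrays and 143, 153 and 161 on the Control arrays. PFOS 1 and PFOS 3 were below all Control arrays, and PFOS 2 and PFOS 4 were within their range. The log2 difference was -0.16 (SE 0.11, adjusted p = 0.512), and -0.07 without PFOS 1.

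Because the guides share a seed, the balance among them was also examined, as each guide's log2 signal relative to the mean of the 8 guides on the same array before normalisation, which a scale factor for the array leaves as it is. This measure was chosen after the data were seen. For let-7e it was -2.87, -2.63, -2.70 and -2.61 on the PFOS arrays and -2.55, -2.48 and -2.42 on the Control arrays. All 4 PFOS arrays lay below all 3 Control arrays, a pattern shown by 15.4% of the 123 miRNAs detected on all arrays when set against the same mean. The difference was -0.22 (SE 0.08) and did not pass the test (limma, adjusted p = 0.210 over the 123 miRNAs). Taken from the fitted log2 differences, the same quantity was -0.21 with the loess, -0.12 with quantile normalisation, -0.09 with normexp, -0.10 with the median pixel signal and -0.13 without PFOS 1, and it was positive, 0.07, in the deposited table. Before normalisation, the other 7 guides differed by -0.01 to 0.07, and their groups overlapped.

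Each guide was read by 2 probes of 10 spots each, which gives a check within the array. The spots of a guide probe varied by a mean CV of 5.03% to 8.62%. Of the 16 guide probes, 14 had a positive log2 difference, as did 53.4% of the 320 tested probes, and both probes of let-7e were the exceptions. The values ran from -0.21 to 0.23, and the 2 probes of a guide differed by 0.02 to 0.12. No probe passed the test (limma, 0% called, smallest adjusted p 0.103), while an unadjusted p under 0.05 was reached by 1 guide probe and by 56 of the 320 (17.5%). These signs, like those of the miRNAs, are relative to the array scale and turn with it.

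The largest difference among the guide probes was that of A_26_P00001292 for miR-98, at 37.8, 40.9, 33.2 and 38.1 with PFOS and 32.7, 30.2 and 33.0 in Control. Its groups did not overlap, and its log2 difference was 0.23 (SE 0.09, limma adjusted p = 0.270). The second miR-98 probe, A_26_P00002263, gave 0.11 with overlapping groups. One of the 2 probes of let-7d (A_26_P00001028, 0.19) and of let-7i (A_26_P00001171, 0.16) likewise had all PFOS arrays above all Control arrays. That made 3 of 16 guide probes, where 11.2% of all tested probes showed it. For let-7e, A_26_P00001163 gave -0.11 (SE 0.10) and A_26_P00001164 gave -0.21 (SE 0.10, adjusted p = 0.381).

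**Figure D2:**
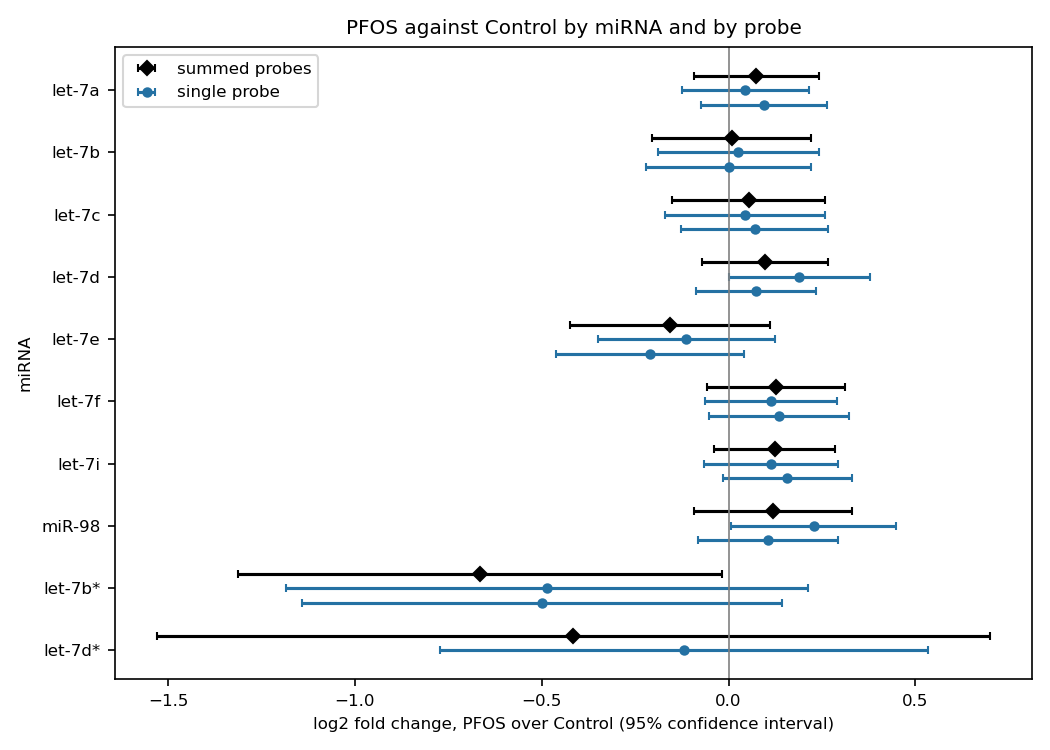
Log2 difference between PFOS and Control (x axis, PFOS over Control; bars are 95% confidence intervals from limma) for each member with its probes summed (diamonds) and for each tested probe (circles). The 2 probes of a guide lie within 0.12 of each other, and intervals for the star strands are wider than those for the guides; positions relative to 0 move with the array scaling.

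The star strands, the partners discarded from most duplexes, were not detected on every array. let-7b* was detected on 3 of 4 PFOS and 2 of 3 Control arrays, at 53.7, 64.6, 33.3 and 35.5 with PFOS and 78.9, 58.1 and 79.3 in Control. PFOS 1, 3 and 4 were below all Control arrays, and PFOS 2 was above Control 2. Its log2 difference was -0.67 (SE 0.27, adjusted p = 0.240, 95% interval -1.31 to -0.02), the lowest in the family. With normexp background correction, which added an offset of 50 to each spot, it was -0.40 and passed (limma, adjusted p = 0.0463). That fit called 20 miRNAs, 14 lower and 6 higher in PFOS. Before scaling and without that offset, the summed let-7b* signal was only 37.8 to 80.7. Whether the offset played a part was not tested. In the deposited table the log2 difference of let-7b* was -0.08.

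let-7d* was detected on 3 PFOS arrays and 1 Control array. It read 50.0, 38.0, 27.7 and 12.4 with PFOS and 41.0, 31.8 and 41.6 in Control. PFOS 4 was close to the floor of 12.1 set for dim values, and PFOS 1 was above all Control arrays. The log2 difference was -0.42 (SE 0.46, adjusted p = 0.728), and -0.05 without PFOS 4. Among the 44 dimmest tested miRNAs, the median log2 difference was -0.13, with 15 positive and 29 negative. The only member among them was let-7d*, and let-7b* was brighter. Whether signal strength played a part in the star strands' values was not tested.

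Each star strand had 4 probes of 5 spots. Of these 8 probes, 3 were detected widely enough to be tested. The summed star signals above include the untested probes as well. For let-7d*, A_26_P00001962 and A_26_P00001963 were detected on no array and A_26_P00001964 on 2 PFOS arrays. The untested let-7b* probes were each detected on 2 PFOS arrays, and on 1 (A_26_P00001994) and 2 (A_26_P00001996) Control arrays. The tested let-7b* probes gave -0.49 (A_26_P00001995, SE 0.29) and -0.50 (A_26_P00001997, SE 0.27), with overlapping groups. The tested let-7d* probe, A_26_P00001965, gave -0.12 (SE 0.27).

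A further 7 star strands of the family were on the array (let-7a-1*, let-7c-1*, let-7e*, let-7f-1*, let-7f-2*, let-7i* and miR-98*). let-7a-1* was detected on 1 PFOS array and the others on none, so none was tested. miR-3596a, miR-3596b, miR-3596c and miR-3596d, whose sequences are complementary to let-7a, let-7d, let-7e and let-7f over 20 to 22 bases, were also detected on no array.

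The log2 ratio of guide to star signal within an array is unchanged by a scale factor for the array, although not by the loess, and it includes the difference in binding between probes. For let-7b it was 4.76, 4.32, 5.43 and 5.14 with PFOS and 4.00, 4.63 and 4.08 in Control. The mean was 4.91 ± 0.48 (SD, n = 4) against 4.24 ± 0.34 (SD, n = 3). PFOS 2 lay below Control 2, so the groups overlapped, and the difference of 0.67 (SE 0.29, 95% interval -0.03 to 1.38) did not pass the test (limma, adjusted p = 0.242 over 21 pairs of arms). Of those pairs, 1 was called (4.76%).

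For let-7d the ratio was 4.45, 4.90, 5.27 and 6.42 with PFOS and 4.72, 4.98 and 4.54 in Control. PFOS 4, where the star strand was near the floor, was the highest, and PFOS 1 was the lowest of all arrays. The difference was 0.51 (SE 0.45, limma adjusted p = 0.514, 95% interval -0.57 to 1.59), and 0.16 without PFOS 4. Both arm differences moved with the processing. With normexp, which added an offset of 50 to the spots of both arms, they were 0.39 for let-7b (limma, adjusted p = 0.0415). For let-7d they were 0.43 (adjusted p = 0.0160). With the mean of log2 probe signals they were 0.26 and 0.19, and in the deposited table -0.16 and -0.17.

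The called pair was miR-99a and its star strand. Its gene neighbours a let-7c gene on chromosome 11, and the log2 ratio of its 2 strands was 5.02, 5.09, 5.15 and 5.18 with PFOS and 4.67, 4.73 and 4.61 in Control. The groups did not overlap, as in 14.3% of the 21 pairs in this direction, and the difference was 0.44 (SE 0.08, limma adjusted p = 0.0169). miR-99a* was detected on 3 PFOS arrays and 1 Control array. The number of pairs called was 0 without PFOS 2, PFOS 3, PFOS 4 or Control 3, and 2 without Control 1. It was also 0 with quantile normalisation, the mean of log2 probe signals, the brightest probe, trend and robust moderation, detection on all 7 arrays, no detection filter, or the total gene signal. The miR-99a pair was not tested where detection on all 7 arrays was required, nor without any 1 of the 3 PFOS arrays that detected miR-99a*. A count of 0 from those settings is no re-test of this pair.

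Pairs of guides were compared by the SD, over the 7 arrays, of their log2 signal ratio before loess. A low SD means that the ratio of both signals changed little from array to array, which also holds where neither signal varied beyond the brightness of the array. The 28 pairs of guides had SDs of 0.0415 to 0.202, with a median of 0.106. A guide paired with a non-member detected on all arrays had a median of 0.209 (920 pairs), and 2 non-members had 0.297 (6555 pairs). The lowest SDs of these were 0.0421 and 0.0349, so low values were not particular to the family. The non-members were not matched to the guides for signal strength. The 2 probes of the same guide had SDs of 0.0402 to 0.0830, the highest for let-7e and the next, 0.0574, for let-7a. These pairs share arrays and members, so they are a description with no test.

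The SD showed little relation to sequence likeness. Over the 28 pairs, the correlation of the SD with the number of bases that differ was -0.01 (Pearson) and 0.00 (Spearman). let-7a and let-7f, 1 base apart, had the lowest SD, 0.0415. let-7a and let-7e, also 1 base apart, had 0.164, while let-7d and let-7i, 6 bases apart, had 0.0742. The 7 pairs with let-7e were the 7 highest, from 0.164 to 0.202, and the other 21 had a median of 0.0906.

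Pairs with neighbouring genes had a lower median SD than the other pairs, but the ranges overlapped (0.0415 to 0.0858 against 0.0704 to 0.202). The 5 such pairs had a median SD of 0.0552: let-7a with let-7f and with let-7d, let-7d with let-7f, let-7f with miR-98, and let-7b with let-7c. The other 23 had a median of 0.125, or 0.0998 for the 16 that do not include let-7e. let-7a, let-7c and let-7f each have a second gene elsewhere with the same mature sequence, so a probe's signal does not belong to 1 gene. The share of a probe's signal that comes from a relative was not tested, and the probes' own sequences were not analysed here.

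**Figure D3:**
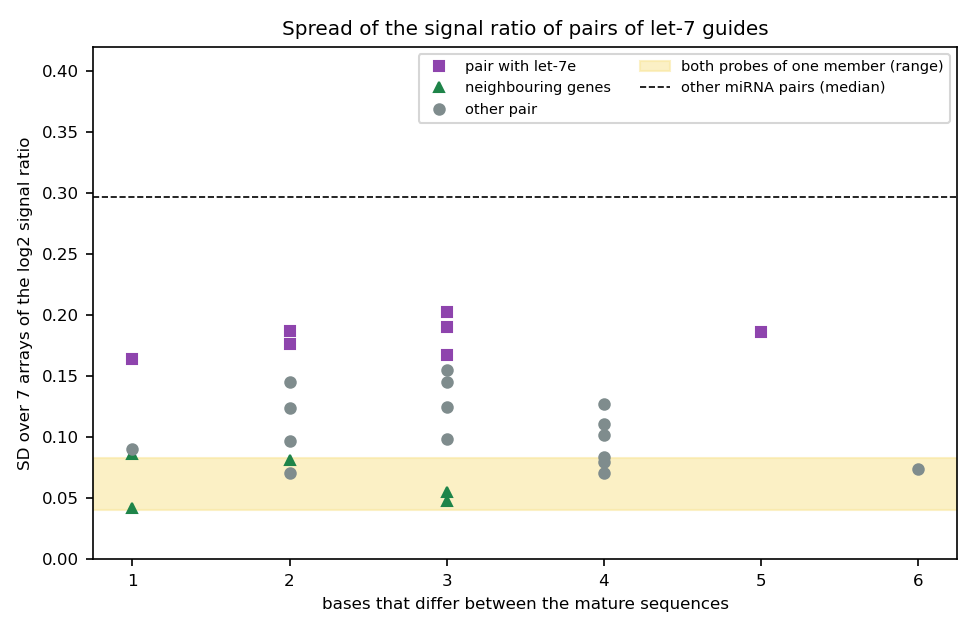
SD over the 7 arrays of the log2 signal ratio of 2 guides (y axis) against the number of bases that differ between their mature sequences (x axis), 1 point for each of the 28 pairs. Squares are the 7 pairs with let-7e (0.164 to 0.202), triangles the 5 pairs with neighbouring genes (0.0415 to 0.0858), the band the range for 2 probes of 1 guide, and the dashed line the median of 0.297 for pairs of other miRNAs.

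Members of the miR-99, miR-100 and miR-125 families share primary transcripts with let-7 genes in mammals. Of the 10 such miRNAs on the array, 6 were tested, of which 2 were positive and 4 negative, with a median of -0.10, and none passed the test. In RefSeq, let-7e has miR-99b and miR-125a as neighbours on chromosome 1. miR-125a-5p read 39.6, 43.1, 44.3 and 36.8 with PFOS and 41.8, 45.2 and 58.3 in Control. Its groups overlapped, and its log2 difference of -0.23 (SE 0.14, adjusted p = 0.435) had the sign of that for let-7e.

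The log2 difference was -0.13 for miR-125a-3p (SE 0.68) and miR-99b was not detected widely enough to be tested. miR-99a, beside a let-7c gene, gave 0.02 (SE 0.17), and its star strand gave -0.42 (SE 0.17, adjusted p = 0.252), with every PFOS array below every Control array, as in 8.00% of all miRNAs. miR-100, beside a let-7a gene on chromosome 8, gave 0.09 (SE 0.16), and miR-125b-5p gave -0.06 (SE 0.17). The SD of the log2 ratio before loess was 0.160 for let-7e with miR-125a-5p, 0.174 for let-7c with miR-99a and 0.209 for let-7a with miR-100.

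The 3 non-members nearest to the mean profile of the guides, by root mean square difference of centred log2 values over the 7 arrays, were miR-122 (0.0324), miR-26a (0.0370) and miR-30b-5p (0.0541). The median over 165 non-members was 0.210. Among the guides themselves this distance ran from 0.0448 for let-7a to 0.157 for let-7e. miR-122, the miRNA that marks hepatocytes, had a log2 difference of 0.00 (SE 0.06), miR-26a 0.06 (SE 0.06) and miR-30b-5p 0.10 (SE 0.07). All of these, with the guides, were detected on every array and so carried full weight in the loess that sets the scale.

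Under 24 of 25 alternatives let-7e had the lowest log2 difference of the 8 guides. Not all of these could change the order. Omitting the detection filter, requiring detection on all 7 arrays, and trend and robust moderation kept the main log2 differences. The scalings without loess differed from each other by the same amount for every guide. The exception was the deposited table, where let-7a was lowest at -0.29 and let-7e was at -0.09. With the labelling spike-in as the scale, the guides lay at -0.53 for let-7e and at -0.33 to -0.24 for the other 7. The median of the members was above that of all tested miRNAs in 24 of the 25, although the difference was 0.00 to 2 decimals with quantile normalisation. The difference was largest, 0.15, without PFOS 3, where only the 8 guides were tested. The members' median was below that of all tested miRNAs by 0.12 in the deposited table.

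**Figure D4:**
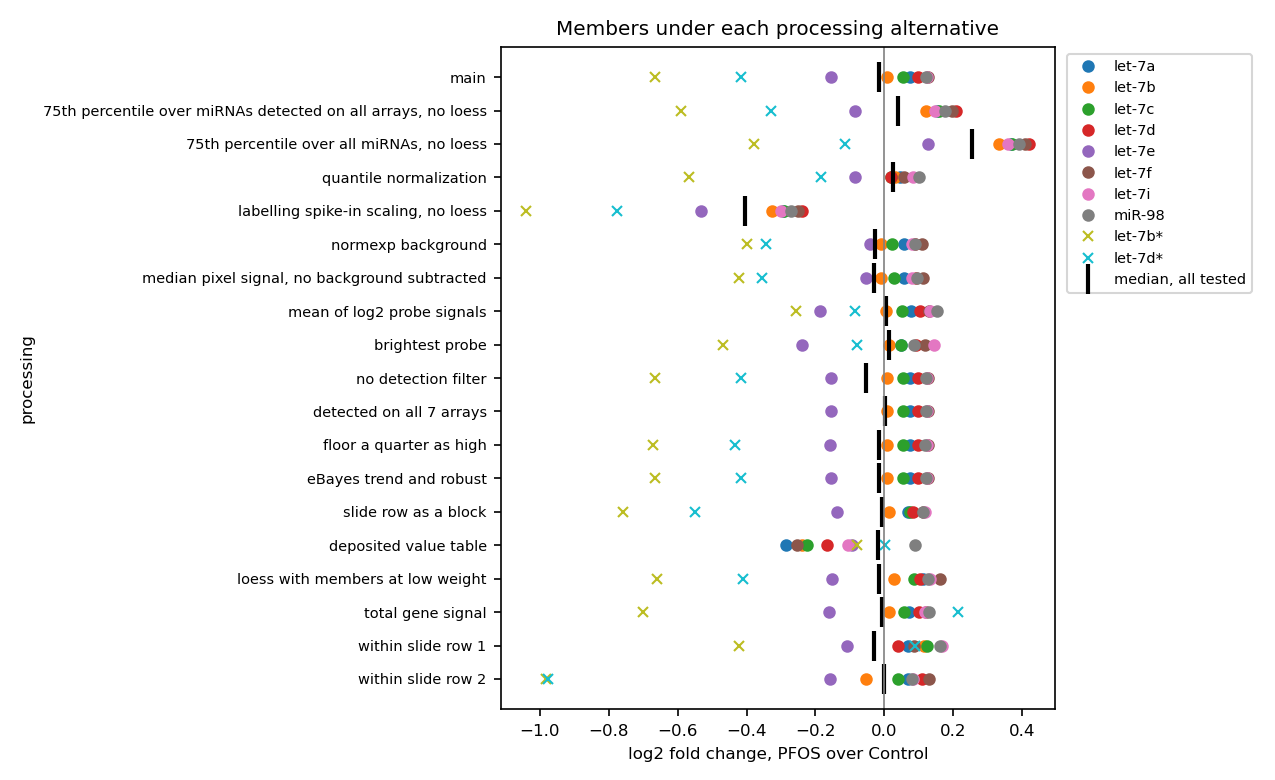
Log2 difference between PFOS and Control (x axis) of each member under the main processing and each alternative (y axis, leave-one-out settings not drawn). Circles are guides, crosses star strands and vertical bars the median of all tested miRNAs; all 8 guides are negative with labelling spike-in scaling, and in the deposited table miR-98 is the only positive guide.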

How the data were processed

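Per the file headers, spot intensity values were made by Agilent Feature Extraction 10.7.3.1 from 1-colour arrays on 1 slide with 2 rows. The intensity used was the processed signal, background-subtracted. The deposited series table holds log2 values that the authors normalised by cyclic lowess, per the labels, with settings not stated in the sources used here. Groups came from sample titles, and replicate numbers only name arrays.

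Outlier spots were dropped, spots averaged per probe, and probes summed per miRNA (13540 spots, 1644 probes). Each array was brought to the same 75th percentile of the miRNAs detected on all arrays, floored at 12.1, taken to log2 and normalised by cyclic loess (span 0.7, 3 iterations, weight 0.001 for miRNAs not detected on all arrays). Detection required over 50% of a probe's spots well above background. Tested were miRNAs, and likewise probes, detected on all 3 Control or at least 3 PFOS arrays. Groups were compared by limma 3.58.1 in R 4.3.3 (lmFit, eBayes), calling a Benjamini-Hochberg adjusted p under 0.05. Fits were tested on simulated data. Normexp ran on the median signal and added an offset of 50 to each spot. The median pixel signal was used with no background subtracted. Files were read with data.table (1.17.8) and pandas 2.3.3, and plots drawn with matplotlib 3.10.9.

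Members, lists, tests and alternatives were chosen with earlier results of these data known. Named were the members, other let-7 star strands, miRNAs with the same seed, transcript partners and the 3 nearest non-members. The number of arrays limits the precision. Array names here are those of the design, and RefSeq served for sequences and neighbouring genes within 10000 bases only.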

Additional observations from a re-analysis of the deposited data

Results flagged for a closer look

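Among 15 sets of PFOS values screened for a single array far from the other 3, 1 had such an array, where chance gives about 1 in 20. It was let-7c, for which PFOS 2 read 1867 and the other PFOS arrays between 2089 and 2129. Both let-7c probes had their lowest PFOS value on that array, at 1319 (A_26_P00001161) and 556 (A_26_P00001162). The value lay inside the Control range of 1825 to 2096.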

How the results depend on the processing

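No paired analysis was possible because the arrays carry no replicate numbers shared between the groups. Beside 21 other settings, 2 were added after seeing the data (members at low weight in the loess, and the total gene signal), and values were taken within each slide row.

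The count of miRNAs called, 0 in the report, was 3 with the 75th percentile over all miRNAs, 4 with spike-in scaling, 20 with normexp, 17 with the median pixel signal, 1 without a detection filter (leaving out miRNAs at the floor on every array), 4 with slide row as a block, 9 in the deposited table, 1 with the total gene signal, and 0 without each array in turn. Probes called were 14 with spike-in scaling and 6 with the row block. Pairs of arms called, 1 in the report, were 2 with either 75th percentile and no loess, 2 with spike-in scaling, 5 with normexp, 5 with the median pixel signal, 6 in the deposited table, and 0 with quantile normalisation, mean log2 probes, the brightest probe, no filter, detection on all 7 arrays, trend and robust moderation, or the total gene signal. Without 1 array it was 0 to 2, over 16 to 22 tested pairs. One member, let-7b*, was called, with normexp alone (adjusted p = 0.0463). The members' median, 0.06, was 0.15 and 0.36 with the 75th percentile over detected and over all miRNAs (all tested 0.04 and 0.25), -0.30 with spike-in scaling, -0.13 in the deposited table, and 0.04 to 0.11 without 1 array, the highest without PFOS 3. The set of members tested changed between these. Without PFOS 2 or PFOS 3 only the 8 guides were tested, and without PFOS 1 or PFOS 4 only 9 members were. The members' median was also taken within each slide row. It was 0.09 in slide row 1 and 0.05 in row 2.

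The let-7b arm difference, 0.67, was 0.39 with normexp and 0.41 with the median pixel signal, both passing (adjusted p 0.0415 and 0.0381), 0.26 with mean log2 probes, and -0.16 in the deposited table. The let-7d arm difference, 0.51, was 0.43 and 0.45 with those backgrounds (0.0160 and 0.0362), 0.20 with quantile normalisation, 0.19 with mean log2 probes, 0.17 with the brightest probe, 0.16 without PFOS 4, -0.17 in the deposited table and -0.11 with the total gene signal.

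Signs turned as follows. With spike-in scaling let-7a was -0.29, let-7b -0.33, let-7c -0.29, let-7d -0.24, let-7f -0.25, let-7i -0.30 and miR-98 -0.27. In the deposited table let-7a was -0.29, let-7b -0.24, let-7c -0.22, let-7d -0.17, let-7f -0.25, let-7i -0.10 and let-7d* 0.0011. let-7e was 0.13 with the 75th percentile over all miRNAs. let-7b was -0.010 with normexp, -0.0090 with the median pixel signal, -0.052 within row 2, and -0.035 to 0.055 without 1 array. let-7c was -0.0055 to 0.098 without 1 array. let-7d* was 0.21 with the total gene signal and 0.089 within row 1. The cause was not tested. Signals of the star strands, not above background on every array, limit their comparisons.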
